A study of Homo sapiens with 3 samples.

Results

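HNRNPA1 and the pseudogene copies of it that are spread over the human genome were examined for binding of SOX4 and STAT6 in Hep3B cells, a human line derived from a liver carcinoma. The members were HNRNPA1 itself and every gene of the RefSeq table (GRCh38.p14) whose symbol is HNRNPA1P followed by a number, which gave 76 of 59716 placed genes. The series held 3 libraries of Hep3B cells, for which the labels give no treatment, 1 with a SOX4 antibody, 1 with a STAT6 antibody and 1 with IgG, a non-specific antibody that served as background, all made with the CUT&RUN method, in which an antibody-guided nuclease releases the DNA around bound sites. The values are peaks of the SOX4 and the STAT6 library, each called by the authors over IgG, with fold enrichment as the ratio over IgG at the summit, the highest point of a peak. With 1 library per antibody there was no replicate check, no test was possible, and the read depth of the libraries is unknown. The family was chosen by its overlap with peaks of the SOX4 list, so that overlap, and every other value from the same list, is given as a description.

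HNRNPA1 encodes an RNA-binding protein of the heterogeneous nuclear ribonucleoproteins, which coat new transcripts and take part in splicing and mRNA export. Abundant mRNAs of this kind have repeatedly been reverse transcribed and inserted elsewhere in the genome, and the resulting processed pseudogenes lack introns and the promoter of the parent gene. SOX4 is a transcription factor with an HMG box, and STAT6 is the transcription factor that acts downstream of interleukin-4. The copies resemble one another and their parent in sequence, and how reads that match several copies were placed is not given in the sources used here. A value at 1 copy can therefore not be assigned to that copy alone.

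Most copies carried a SOX4 peak and few carried a STAT6 peak. A SOX4 peak overlapped 65 of the 76 members by at least 1 bp, HNRNPA1 and 64 of its 75 copies, a share of 85.5% (Wilson 95% interval 75.9% to 91.7%, which covers counting error only). Among all placed genes 3.64% overlapped a SOX4 peak, and among other pseudogenes of 369 to 1993 bp, the length range of the copies, 1.44% did. These other pseudogenes include copies of RPL23A, a further family with many SOX4 peaks that is described below. A STAT6 peak overlapped 5 of the 76 members, or 6.58% (Wilson 95% interval 2.84% to 14.5%), beside 0.641% of all placed genes and 0.372% of the other pseudogenes of that length. All 5 of these members also carried a SOX4 peak, as did 85.5% of all members. How many of all genes with a STAT6 peak also overlapped a SOX4 peak is not given here. The copies lay on 19 chromosomes, and each of these chromosomes held at least 1 copy with a SOX4 peak. On many chromosomes every copy carried one, for example 7 of 7 on chromosome 2 and 5 of 5 on chromosome 11. The lowest share was 1 of 4 on chromosome 13. The copies there without a SOX4 peak were HNRNPA1P18 (369 bp), HNRNPA1P29 (858 bp) and HNRNPA1P31 (1391 bp).

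The parent gene held 1 peak in each list. HNRNPA1 extends over 6362 bp at chr12:54280726-54287087. Its SOX4 peak, at chr12:54283994-54285463, had a fold enrichment of 33.4 and a −log10 q of 257, where q is the p-value of the peak corrected over the list. Its STAT6 peak, at chr12:54284528-54284980, reached a fold enrichment of 5.01 with a −log10 q of 6.43 and lay wholly inside the SOX4 peak. The summits were 10 bp apart. Neither peak reached an end of the gene, since the SOX4 peak began 3268 bp from the end with the lower coordinate and stopped 1624 bp before the other. Among the copies, 22 had a higher SOX4 fold enrichment than the parent gene. Whether the peaks of HNRNPA1 lay in exons, introns or untranslated regions was not analysed here.

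At most copies the summit lay close to one end. HNRNPA1P9, which lies within a drug transporter gene and is described further down, was set apart, and the other 63 copies with a SOX4 peak were compared. When the position of the summit was written as 0 at the lower end of a copy and 1 at its upper end, 31 summits lay between −0.257 and 0.322 and the other 32 between 0.904 and 1.75. In the middle of the copy, from 0.25 to 0.75, lay 3 summits, those of HNRNPA1P26 at 0.253, HNRNPA1P7 at 0.286 and HNRNPA1P4 at 0.322. The strand of the copies is not in the table used, so lower and upper refer to the coordinate and not to the direction of the gene.

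**Figure D1:**
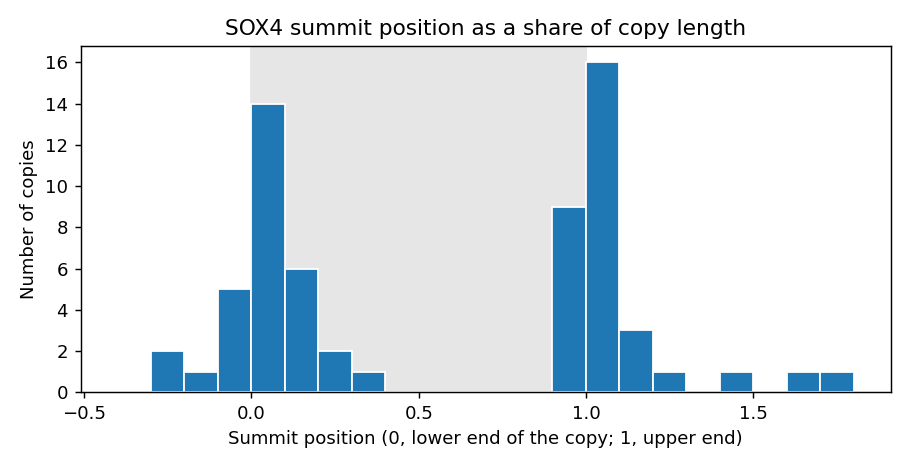
Position of the SOX4 summit along 63 HNRNPA1 copies, with 0 as the lower and 1 as the upper end of each copy (shaded), and the number of copies per bin of 0.1 on the vertical axis. The summits form a group at each end, with 31 at the lower and 32 at the upper, and 3 of the 63 lie between 0.25 and 0.75.

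The distance between the summit and the nearer end of the copy had a median of 89 bp. It was at most 100 bp at 37 of the 63 copies, at most 200 bp at 51 and at most 300 bp at 57. In 32 copies the summit lay inside the annotated copy and in 31 just beyond it. All 63 peaks extended beyond the nearer end, by a median of 629 bp with quartiles of 538.5 and 751.5 bp. They covered a median of 672 bp inside the copy, so that the part inside and the part outside were of similar size. Only 1 peak, at HNRNPA1P33, the shortest copy with a SOX4 peak at 564 bp, reached beyond the far end and covered the copy wholly. This copy lies in the long noncoding RNA gene LINC00842 and is one of 2 copies annotated as transcribed, the other being HNRNPA1P10, whose fold enrichment was 36.9.

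**Figure D2:**
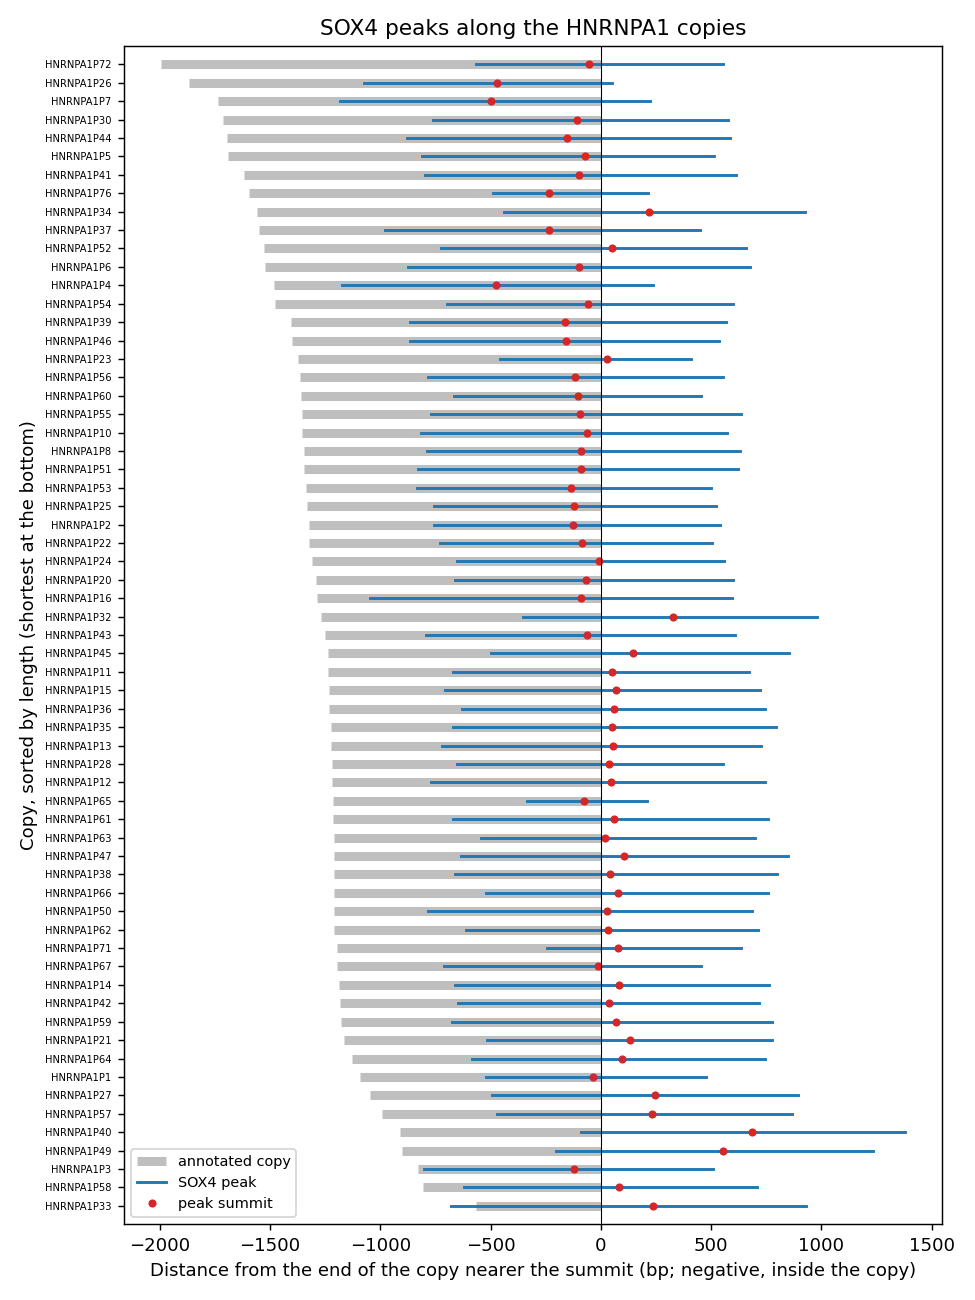
Each row is one of 63 HNRNPA1 copies with a SOX4 peak, sorted by length, with the annotated copy as a grey bar, the SOX4 peak as a blue line and its summit as a red point, on a horizontal axis in bp from the end nearer the summit. All 63 peaks cross that end, and 57 of the summits lie within 300 bp of it.

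In copies of common length, the side of the near end on which the summit lay changed with the length of the copy. In the 27 copies of 1100 to 1300 bp the summit lay a median of 52 bp beyond the near end, and 22 of the 27 summits were outside the copy. In the 16 copies of 1300 to 1500 bp it lay inside, at a median of −97.5 bp, and 1 of the 16 was outside. Measured from the far end, the medians of the same classes were 1268 bp, with quartiles of 1228 and 1287, and 1252 bp, with quartiles of 1232 and 1270. The medians of the 2 classes thus lay on opposite sides of the near end and close together when measured from the far end. This did not extend to the 12 copies over 1500 bp, whose medians were −103.5 bp from the near end and 1532 bp from the far end. Nor did it extend to the 8 copies under 1100 bp, with medians of 234 bp beyond the near end and 1139.5 bp from the far end. Their quartiles from the far end were 866 and 1332 bp. The HNRNPA1L3 gene, a protein-coding relative described below, had its summit 1270 bp from its far end.

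Single copies departed from these medians at every length. Among the copies of common length, the summit lay 476 bp inside HNRNPA1P4 (1480 bp long), which was 1004 bp from the far end, and 326 bp beyond HNRNPA1P32 (1271 bp long), which was 1597 bp from it. The 8 copies under 1100 bp had their summits from 124 bp inside to 684 bp beyond the near end. The largest value belonged to HNRNPA1P40, where the peak overlapped the copy by 92 bp, or 10.1% of it, the smallest overlap among the members. HNRNPA1P49 came next with a summit 555 bp beyond its end. Among the 12 copies over 1500 bp, the summit lay 496 bp inside HNRNPA1P7 and 473 bp inside HNRNPA1P26. In HNRNPA1P72, the longest copy at 1993 bp, it lay 54 bp inside. Across the 63 copies, length and the distance beyond the near end had a Pearson r of −0.63 and a Spearman rho of −0.69. Both measures depend on where the annotated end was placed, and the copies are not independent of one another.

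**Figure D3:**
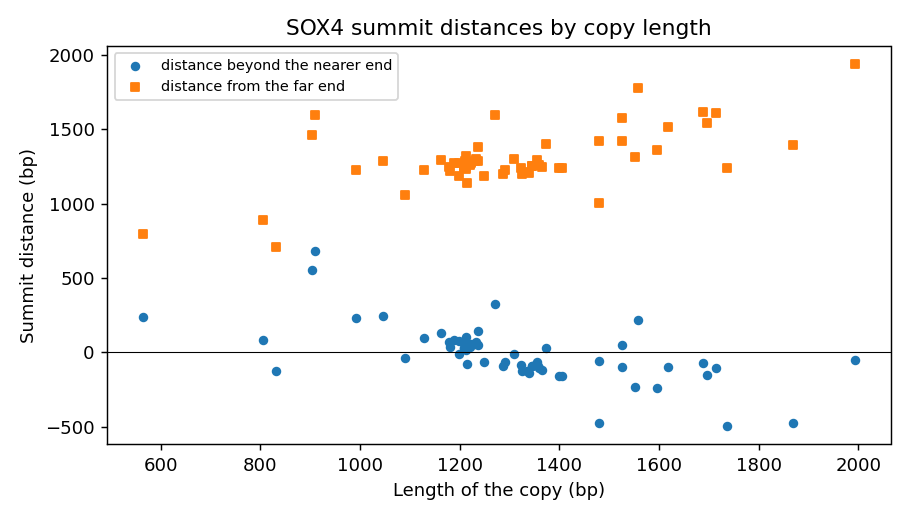
Distance of the SOX4 summit beyond the nearer end (blue circles, negative inside the copy) and from the far end (orange squares), in bp, against the length of 63 HNRNPA1 copies in bp. Between 1100 and 1500 bp the blue points fall from above to below 0, with medians of 52 and −97.5 bp in the 2 length classes, while the orange points have medians of 1268 and 1252 bp.

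The widths of the peaks were alike. Over the 63 copies the median width was 1363 bp with quartiles of 1287 and 1431, beside a median of 891 bp and quartiles of 569 and 1238 over all 4513 SOX4 peaks. Expressed against the length of the copy, the median ratio was 1.03 over the 64 copies with a peak, and the peak covered a median of 54.7% of the copy. The width did not follow the length of the copy, with a Pearson r of −0.15 and a Spearman rho of −0.07. It rose with fold enrichment, with an r of 0.83 and a rho of 0.80, both over 63 peaks of 1 library.

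Fold enrichment lay between 10 and 50 at most copies, a band that was not set in advance. Over the 63 copies it ran from 3.32 to 45.2. The median over the 64 copies was 28.8 with quartiles of 20.5 and 34.7, where all SOX4 peaks had a median of 5.88 and quartiles of 3.83 and 12.3. A fold enrichment of 10 to 50 was found at 58 of the 64 copies, and 16.3% of all SOX4 peaks had such a value. Of the 734 SOX4 peaks in this band, 59 lay at a member. The 675 peaks of the band that lay at no member had a median width of 1248 bp with quartiles of 1132.5 and 1409.5. Fold enrichment did not follow the length of the copy (r = 0.00, rho = 0.04, 63 copies).

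**Figure D4:**
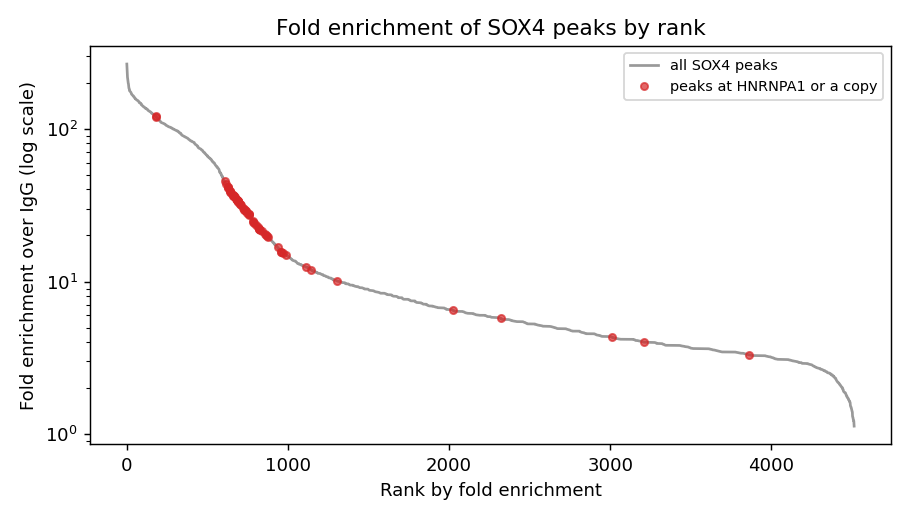
Fold enrichment over IgG on a log axis against rank for all 4513 SOX4 peaks (grey line), with the 66 peaks at HNRNPA1 or a copy as red points. Most red points lie between ranks 607 and 1302, the 2 at HNRNPA1P9 lie higher, and 5 lie below a fold enrichment of 10.

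Apart from HNRNPA1P9, the highest values were 45.2 at HNRNPA1P6 (chr1:58047849-58049373), 43.7 at HNRNPA1P7 (chr18:32411501-32413237), 41.6 at HNRNPA1P35 (chr2:201063026-201064248) and 41.5 at HNRNPA1P44 (chr15:65815862-65817558). They held ranks 607, 615, 627 and 628 of the SOX4 list. The lowest were 3.32 at HNRNPA1P65 (chr4:24771407-24772620), 4.01 at HNRNPA1P76 (chr11:3972699-3974293), 4.32 at HNRNPA1P71 (chr15:33012068-33013265), 5.73 at HNRNPA1P1 (chr6:27523447-27524537) and 6.50 at HNRNPA1P23 (chr3:122317531-122318903). These 5 copies were from 1091 to 1595 bp long, so low values were not limited to short copies. Their peaks were also narrow, from 542 bp at HNRNPA1P65 to 998 bp at HNRNPA1P1, and their summits lay within 237 bp of a copy end.

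Several members had the same recorded values. HNRNPA1 and HNRNPA1P55 shared a fold enrichment of 33.4 and a −log10 q of 257 to the last digit. HNRNPA1P15 and HNRNPA1P49 shared 34.1 and 222, and HNRNPA1P25, HNRNPA1P27 and HNRNPA1P64 shared 22.1 and 121. Of the 66 peaks at members, 21 (31.8%) had both values in common with some other SOX4 peak, beside 45.9% of the 734 peaks with a fold enrichment of 10 to 50.

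In 11 copies no SOX4 peak overlapped. The shortest copy, HNRNPA1P18 with 369 bp on chromosome 13, was among them, as were HNRNPA1P19 with 432 bp, HNRNPA1P75 with 603 bp, HNRNPA1P29 with 858 bp and HNRNPA1P77 with 938 bp. The other 6, HNRNPA1P74, HNRNPA1P70, HNRNPA1P68, HNRNPA1P17, HNRNPA1P69 and HNRNPA1P31, were between 1162 and 1391 bp long and thus as long as most copies with a peak. By length, 8 of 13 copies under 1100 bp carried a peak, 28 of 31 from 1100 to 1300 bp, 16 of 19 from 1300 to 1500 bp and 12 of 12 above.

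A SOX4 peak lay just beyond 2 of these 11 copies. It began 164 bp from HNRNPA1P77, inside the kinesin gene KIF15, with a fold enrichment of 29.7 and a width of 1303 bp. At HNRNPA1P18 the gap was 1077 bp and the fold enrichment 18.8. Both values fall in the range of the overlapping peaks. At the other 9 copies the nearest SOX4 peak was between 38.5 and 2035 kb away.

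The copies with a STAT6 peak were HNRNPA1P12, HNRNPA1P13, HNRNPA1P55 and HNRNPA1P9. At HNRNPA1P12 (chr5:80358880-80360099) the fold enrichment was 39.4 for SOX4 and 5.69 for STAT6. At HNRNPA1P13 (chr5:136428832-136430054) it was 36.4 and 5.37, and at HNRNPA1P55 (chr4:73938274-73939629) it was 33.4 and 4.33. The STAT6 summits lay 50, 39 and 26 bp from the SOX4 summits of these copies, and each STAT6 peak lay inside the SOX4 peak. The STAT6 peaks were from 315 to 365 bp wide, close to or below the lower quartile of 354.5 bp of all 1078 STAT6 peaks, whose median fold enrichment was 7.27. A further STAT6 peak began 474 bp beyond the end of HNRNPA1P49. It had a fold enrichment of 4.11 and its summit lay 19 bp from the SOX4 summit, which was itself outside that copy. Both lists were called over the same IgG library and are not independent. How often STAT6 peaks elsewhere lay inside a SOX4 peak is not given here. The copies with the highest SOX4 values outside ABCB1, HNRNPA1P6 and HNRNPA1P7, carried no STAT6 peak.

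HNRNPA1P9 (chr7:87521393-87522612) differed from the other members in its surroundings. It lies inside ABCB1, which encodes the drug efflux pump P-glycoprotein and held 22 SOX4 and 29 STAT6 peaks along 210 kb. It was the only member overlapped by 2 SOX4 peaks, with fold enrichments of 120 and 119, widths of 3165 and 3369 bp and ranks 179 and 184. The summit of the higher peak lay 1576 bp beyond the copy. The STAT6 peak at this copy reached 8.54, and its summit was 1407 bp from that of the higher SOX4 peak. Peaks of the copy and of the gene around it cannot be told apart here.

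About as many copies lay within another annotated gene as outside. Of the 75 copies, 38 lay wholly inside another gene, and 32 of these carried a SOX4 peak (84.2%). Of the 37 outside, 32 did (86.5%). The median fold enrichment was 30.9 inside and 24.3 outside, with quartiles of 23.4 to 36.7 and 16.4 to 33.4 that overlapped. In 34 copies the host was protein-coding, and 28 of these copies had a SOX4 peak.

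For 22 of these 28 host genes, the peak at the copy was the only SOX4 peak in the gene. They included GAREM1 with HNRNPA1P7, HYCC2 with HNRNPA1P35, SPIN1 with HNRNPA1P14 (fold enrichment 41.0), EEA1, an early endosome tether, with HNRNPA1P50 (36.3), MAPKAP1, a subunit of the mTORC2 kinase complex, with HNRNPA1P15 (34.1), and SFT2D1 with HNRNPA1P49 (34.1). SRR, which makes D-serine, belonged to them with HNRNPA1P16 (38.6). The calcium sensor gene STIM1, 239 kb long, had only the peak of 4.01 at HNRNPA1P76. Another peak was present in DAB1, host of HNRNPA1P6, over 1552 kb, and in WDPCP, host of HNRNPA1P66 (35.6). In DLG2, host of HNRNPA1P72 (12.4), 3 further SOX4 peaks lay over 2173 kb. For the 6 protein-coding hosts of copies without a SOX4 peak, 4 had no SOX4 peak at all. Among all placed genes 3.64% overlapped a SOX4 peak, so a gene without a further peak is the usual case. The 22 of 28 hosts were not set against other genes of like length.

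Other genes related to HNRNPA1 were examined by the same overlap. The 2 HNRNPA1-like genes, which are relatives annotated as protein-coding, both carried a SOX4 peak. At HNRNPA1L3 (chr16:51645757-51647079) the fold enrichment was 36.0, the width 1466 bp and the summit 53 bp inside the upper end. At HNRNPA1L2 (chr13:52617525-52643773) the fold enrichment was 40.8, the width 1479 bp and the summit 85 bp inside the upper end. HNRNPA1L2 is annotated on the plus strand, so that this is the 3′ end of the gene, and no SOX4 peak lay in the window around its transcription start. It also carried a STAT6 peak of 4.43, whose summit was 47 bp from the SOX4 summit.

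No peak was found at the other hnRNP genes examined. None of HNRNPA2B1, HNRNPA3, HNRNPA0, HNRNPC, HNRNPD, HNRNPK and HNRNPU, which encode other RNA-binding proteins of the group, overlapped a peak of either list. A SOX4 peak overlapped 3.64% of all placed genes, so 0 of 7 does not set these genes apart. Of 34 pseudogenes of these 7 genes, 2 overlapped a SOX4 peak and 0 a STAT6 peak. Among pseudogenes within the length range of the HNRNPA1 copies, 1.44% overlapped a SOX4 peak and 0.372% a STAT6 peak. The 34 pseudogenes were not limited to that range, and HNRNPKP5 with 355 bp and HNRNPCP9 with 18340 bp, for example, fall outside it. The difference in share was not tested. The 2 pseudogenes with a SOX4 peak were HNRNPA3P7 (40.3) and HNRNPA3P8 (50.5). Their peaks overlapped 358 and 344 bp of the pseudogene, with summits 347 and 349 bp beyond its end.

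Among large pseudogene families, HNRNPA1 and RPL23A had the most copies with a SOX4 peak. A family was taken as all symbols made of a gene's symbol, P and a number, and 73 families had at least 20 copies. In 63 of them no copy overlapped a SOX4 peak, and in 8 of them 1 or 2 copies did. In these 71 families 9 of 2937 copies (0.306%) had a SOX4 peak and 0 had a STAT6 peak. The 2 remaining families were HNRNPA1, with 64 of 75 copies, and RPL23A, the gene of a ribosomal protein, with 62 of 95. RPL23A itself held 1 SOX4 peak and no STAT6 peak, and 4 of its copies overlapped a STAT6 peak, the same number as for HNRNPA1. The difference between the 2 families was not tested.

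**Figure D5:**
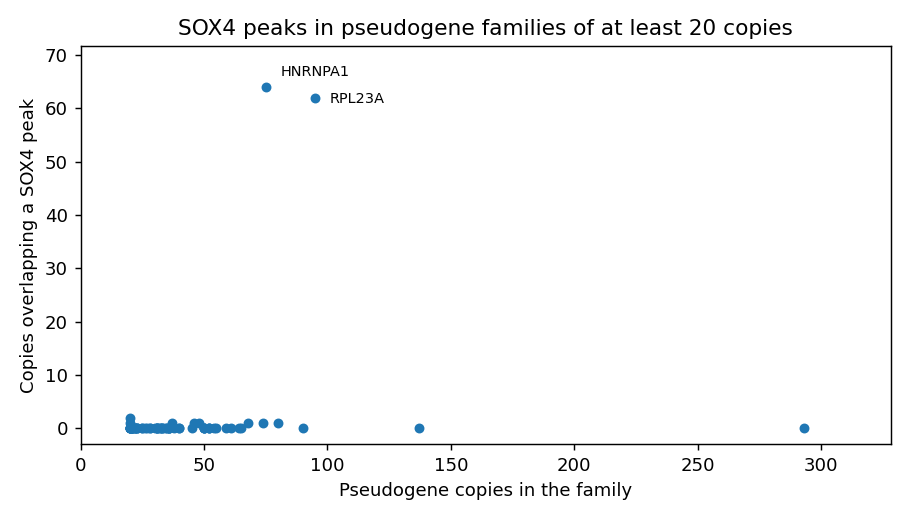
Number of copies overlapping a SOX4 peak against the number of copies in the family, for 73 pseudogene families with at least 20 copies. HNRNPA1 (64 of 75) and RPL23A (62 of 95) lie far above the others, which have at most 2 copies with a peak.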

How the data were processed

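Peaks came from CUT&RUN libraries of Hep3B cells, 1 per antibody. Per the submitters' processing notes, BWA and Partek were used with build hg38. Peaks were called by the authors in Partek Flow, and the algorithm, its threshold and the handling of reads with several matches are not given in the sources used here. The deposited columns were start, end and summit, the fold enrichment (a ratio over IgG), the significance as −log10 of p and q, and a score for browser display that was not used. Depth is unknown, so the precision of single values is too. No test was run.

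From these, overlaps of at least 1 bp with genes of the RefSeq table (GRCh38.p14, without strand or exons for the copies) were computed with Python 3.11.15, pandas 2.3.3, numpy 2.4.6 and scipy 1.17.1. The procedure was tested on simulated data and found 200 of 200 planted overlaps. Where several peaks overlapped a copy, the one with the highest fold enrichment was used. Positions are 1-based.

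Members, gene lists and alternatives were chosen with earlier results of these data known. Named were the parent, the 5 highest and 5 lowest copies, copies without a SOX4 or with a STAT6 peak, the longest and shortest, and up to 10 within protein-coding genes. The other copies named were singled out after their values were seen. The distance to the nearer end, the setting apart of HNRNPA1P9 and the length classes were also added then. Sequences of the copies were not analysed here.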

Additional observations from a re-analysis of the deposited data

How the results depend on the processing

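Over 9 results, 33 alternatives were run, of which 28 stayed within a factor of 1.5 of the value reported and 5 moved beyond it. Of these alternatives, 5 were chosen after seeing the data. The 65 members overlapping a SOX4 peak became 42 when at least 50% of the copy had to be covered and 33 when the summit had to lie inside it. The 5 members overlapping a STAT6 peak became 0 and 3 under the same requirements, and the 5 with a peak of both lists became 0 with 50% of the copy covered. Each change follows from the stricter definition of overlap. Members with a SOX4 and with a STAT6 peak numbered 64 and 4 when −log10 q had to reach 5, 62 and 4 when fold enrichment had to reach 5, and 66 and 6 with 1000 bp added on either side. The median position of the summit along the copy was 0.917 and ranged from 0.904 to 0.938 over its alternatives, but the summits form a group at either end and 1 median does not describe both. No paired analysis was possible because the libraries had no replicates that could be paired. With unknown depth, a copy without a peak cannot be read as unbound.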

Other observations

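The RPL23A copies, which were no members, had SOX4 peaks of similar size to those at the HNRNPA1 copies. Over the 62 copies with a peak the median fold enrichment was 23.1 with quartiles of 18.8 and 28.3, and the median width was 1390 bp. These copies are shorter, with a median length of 530 bp, and 50 of the 62 were covered wholly. The summit lay inside the copy in 59 of 62. Its distance from the nearer end had a median of 75 bp with quartiles of 58.25 and 97.5. It was nearer the lower end in 40 copies and the upper end in 22. Written as 0 at the lower end and 1 at the upper end, its position had a median of 0.172 with quartiles of 0.114 and 0.817. From the middle of the copy it lay a median of 199 bp, with quartiles of 176.5 and 228 bp. Most of these copies are short, which limits how far in bp a summit inside one can lie from an end. The median distance from the nearer end was 89 bp at the HNRNPA1 copies, and the difference between the families was not tested.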
